A study of Mus musculus with 6 samples.

Results

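Heat shock chaperones were examined in CD45-positive cells of the mouse hippocampus after learned helplessness, as 10 genes given by name out of 32429 gene symbols in the count matrices. The 10 genes were Hspa1a, Hspa1b, Hsph1, Dnajb1 and Hsp90aa1, grouped here as inducible cytosolic chaperones, and Hsp90ab1, Hspa8, Hspd1, Hspe1 and Hspa5, grouped as constitutive and organelle chaperones. All 10 had transcripts in the microglia of every library.

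Chaperones bind unfolded or misfolded proteins and let them refold or pass to degradation. When unfolded protein builds up in the cytosol, heat shock factor 1 is released from chaperones, binds heat shock elements in promoters and raises transcription of the inducible chaperones. Unfolded protein in the endoplasmic reticulum acts through separate sensors, whose best known target is Hspa5. Microglia, the resident macrophages of the brain, are taken out of tissue by steps that can themselves induce such genes.

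In learned helplessness, mice receive inescapable foot shocks and are later tested for escape from shocks that can be escaped. The labels give 6 groups of mice, all of strain BC57BL/6 as the labels spell it. The acute helpless and acute non-helpless groups received 180 inescapable shocks of 0.3 mA and then an escape test made up of 30 trials, each 24 s long. The chronic non-recovered, chronic recovered and chronic non-helpless groups had the same shocks and then weekly retests for 3 weeks. The recovered mice had been helpless and stopped being so. The non-shocked group received no shocks. Tissue was taken directly after the paradigm. Hippocampi without meninges and choroid plexus came from perfused mice; after a Percoll step, live cells positive for CD45 were sorted, and their RNA was read by droplet-based single-cell sequencing from the 5′ end. The number, age and sex of the mice behind a library are not stated in the sources used here.

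Each group had 1 library, so there was no spread between replicates and no test between groups. The deposited files hold 3005 cells, and the authors' cell types put 2721 of them in microglia. The microglia of the acute helpless, acute non-helpless, chronic non-recovered, chronic recovered, chronic non-helpless and non-shocked libraries numbered 630, 569, 99, 372, 499 and 552. Their summed unique molecular identifiers (UMIs, each a captured transcript) came to 2711534, 2267306, 303934, 1726795, 2131424 and 1873377. All 8 microglial markers checked had UMIs in every library, and P2ry12 was seen in 96.0% to 98.6% of microglia per library. The deposited batch number was 1 for the acute helpless library, 2 for the acute non-helpless library and 3 for the chronic libraries. The non-shocked library was split over batch 2 (123 microglia, median 905 UMIs per cell) and batch 3 (429 microglia, median 3906). Between the acute libraries, behaviour, library and batch cannot be told apart. Libraries shared 5 cell barcodes over all pairs. Levels are UMIs per 1000000 UMIs (CPM) summed over the microglia of a library, and bracketed ranges are exact 95% intervals that cover counting error only. A gene is called higher or lower where its ratio reached 1.5-fold and the interval of the ratio lay on that side of 1. Fewer cells with a transcript and fewer transcripts per cell cannot be told apart from a summed level.

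Hspa1a and Hspa1b encode the stress-induced cytosolic Hsp70, which binds exposed hydrophobic stretches of unfolded proteins. They lie 10120 bases apart on the minus strand of chromosome 17 (build GRCm38, mm10), Hspa1a at chr17:34969359-34972156 and Hspa1b at chr17:34956429-34959238. Their upstream windows are shown because these 2 genes had the widest range between libraries and because the pair is nearly the same in sequence. Each window holds the 250 bases before the RefSeq start (GRCm38.p6), at chr17:34972157-34972406 for Hspa1a and chr17:34959239-34959488 for Hspa1b, both read on the minus strand 5′ to 3′, with a heat shock element in capitals.
Hspa1a: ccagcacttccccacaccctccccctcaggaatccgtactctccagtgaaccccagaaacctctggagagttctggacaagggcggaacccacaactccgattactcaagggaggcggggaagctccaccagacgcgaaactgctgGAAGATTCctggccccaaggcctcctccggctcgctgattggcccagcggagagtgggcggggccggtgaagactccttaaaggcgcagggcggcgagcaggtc
Hspa1b: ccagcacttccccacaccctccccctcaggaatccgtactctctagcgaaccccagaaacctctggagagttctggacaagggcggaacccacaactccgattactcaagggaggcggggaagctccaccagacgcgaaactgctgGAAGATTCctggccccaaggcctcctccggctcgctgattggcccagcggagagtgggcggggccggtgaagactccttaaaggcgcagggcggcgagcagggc
The windows were identical at 247 of 250 bases. Counted from 1 at the 5′ end of the window, with the Hspa1a base first and the Hspa1b base last, the differences were C44T, T47C and T249G. The element searched was GAANNTTC or TTCNNGAA, each of which reads the same on both strands, and each window held 1 match, at base -104 from the start. Of 32841 promoter windows of that length, 12.8% held at least 1 match, so a match describes the window and is no evidence of binding. The transcripts share sequence too: of the 50-base stretches starting in the first 300 bases of each transcript, where 5′ reads fall, 74.3% also occurred in another gene's transcript, for Hspa1a as for Hspa1b, the other genes being this pair and Hspa1l. How the authors' counting split or dropped reads that match both is not stated in the sources used here, so the split between these 2 genes is uncertain and their sum is given as well.

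In summed level, the Hspa1a and Hspa1b pair was high in acute non-helpless and chronic microglia and low in acute helpless and non-shocked microglia. Hspa1a stood at 32.1 CPM (25.7 to 39.6; 87 UMIs) in acute helpless, 284 CPM (262 to 306; 643 UMIs) in acute non-helpless, 125 CPM (88.5 to 172; 38 UMIs) in chronic non-recovered, 195 CPM (174 to 217; 336 UMIs) in chronic recovered, 179 CPM (161 to 198; 381 UMIs) in chronic non-helpless and 21.9 CPM (15.7 to 29.7; 41 UMIs) in non-shocked microglia. The counting intervals of acute helpless and non-shocked microglia overlapped each other and none of the rest. In chronic non-recovered microglia the 38 UMIs lay in 10 of 99 cells, with up to 13 in a cell. That summed level therefore rests on few cells, and its interval does not cover the spread between cells. Hspa1b had the same order, with 7.01, 73.2, 16.5, 42.3, 25.3 and 1.60 CPM in those libraries, from 19, 166, 5, 73, 54 and 3 UMIs. Its 3 UMIs in non-shocked microglia lay in 0.543% of cells, not above the 0.725% with a UMI of the neutrophil gene S100a8, so that level is read as background and ratios of Hspa1b over non-shocked microglia give no size of a difference. The sum of both genes was 39.1 CPM (32.0 to 47.3) in acute helpless, 357 CPM (333 to 382) in acute non-helpless, 141 CPM (102 to 191) in chronic non-recovered, 237 CPM (214 to 261) in chronic recovered, 204 CPM (185 to 224) in chronic non-helpless and 23.5 CPM (17.1 to 31.5) in non-shocked microglia. Neighbours in that order whose intervals overlapped were chronic recovered with chronic non-helpless, and chronic non-helpless with chronic non-recovered.

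The other 3 inducible members followed the pair less steeply. Hsph1, or Hsp110, acts as the nucleotide exchange factor of Hsp70; it had 21.0 CPM in acute helpless, 57.3 in acute non-helpless, 59.2 in chronic non-recovered, 48.6 in chronic recovered, 58.2 in chronic non-helpless and 11.7 in non-shocked microglia. Its 4 higher libraries had overlapping intervals, and both lower libraries lay under all 4. Dnajb1, the Hsp40 that hands substrates to Hsp70, had 114, 203, 115, 208, 180 and 75.8 CPM in the same order of libraries. Hsp90aa1, the stress-induced form of cytosolic Hsp90, had 153, 213, 132, 198, 182 and 104 CPM. For Dnajb1 and Hsp90aa1 the chronic non-recovered library sat beside the acute helpless one, with overlapping intervals, and its level was below those of the recovered and chronic non-helpless libraries. The Hsp90aa1 level may include reads of pseudogenes, since 53.3% of the 50-base stretches at its transcript start occur in other genes; for Hsph1 and Dnajb1 that share was 0%, and for Hspd1 and Hspe1 it was 17.3% and 7.33%. In Hsph1 the upstream window on chromosome 5 (minus strand, chr5:149636351-149636380) held 1 heat shock element, shown with 30 bases for comparison with the Hspa1a element, and the windows of Dnajb1 held none of these letters.
Hsph1: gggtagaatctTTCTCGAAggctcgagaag

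**Figure D1:**
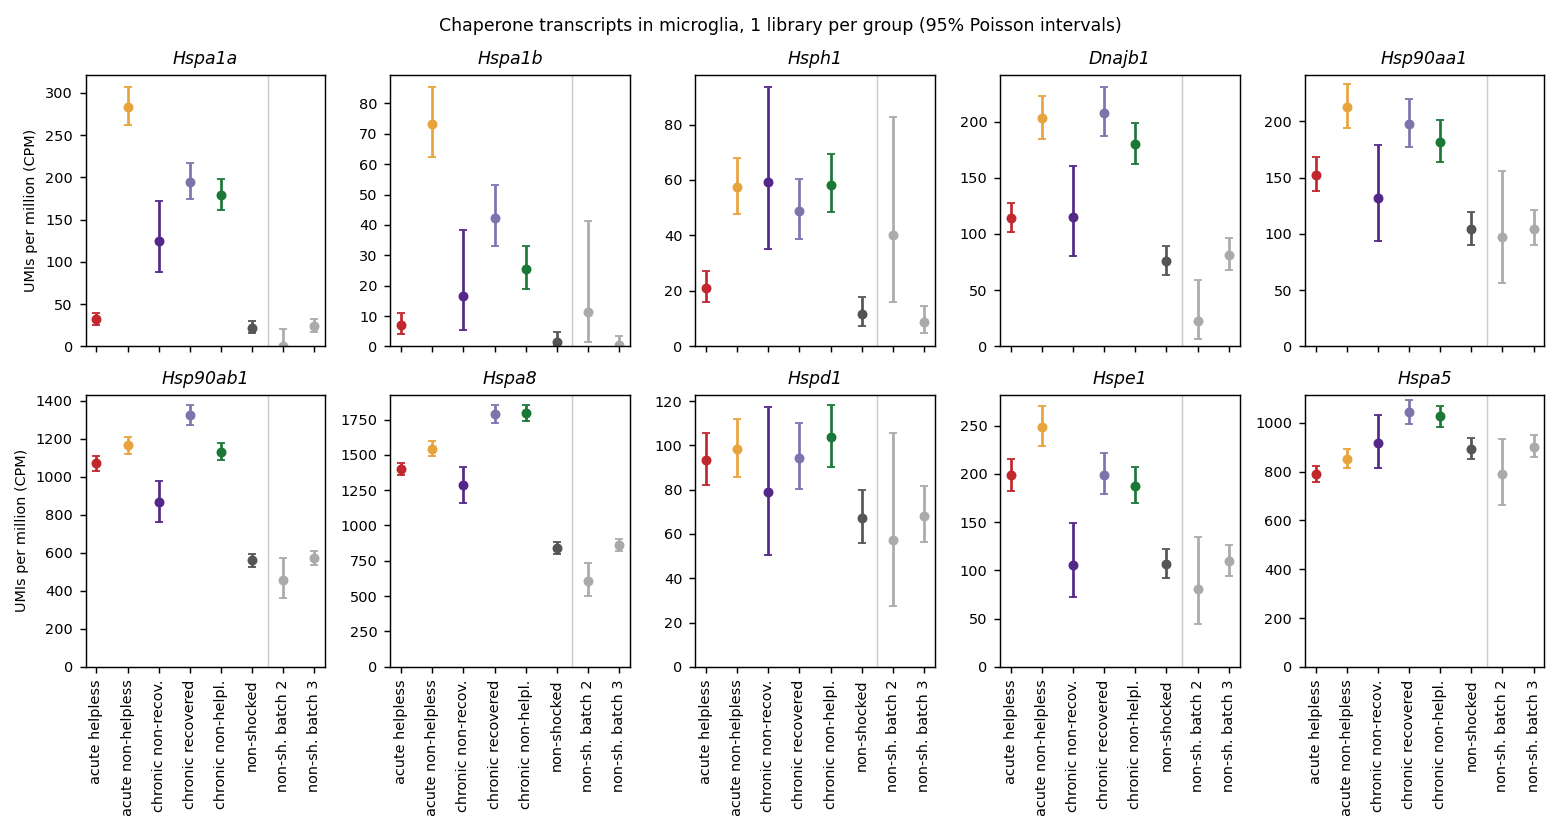
Level in UMIs per 1000000 (CPM) of each chaperone in the summed microglia of each library, with 95% Poisson intervals; the points right of the grey line split the non-shocked library by deposited batch number. Hspa1a sits at 32.1 CPM in acute helpless and 21.9 CPM in non-shocked microglia, against 125 CPM or more in the other 4 libraries, while Hspa5 stays between 791 and 1044 CPM.

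The constitutive cytosolic members separated the non-shocked library from the shocked ones. Hspa8, the cognate Hsc70 present in unstressed cells, had 1400 CPM in acute helpless, 1543 in acute non-helpless, 1283 in chronic non-recovered, 1788 in chronic recovered, 1798 in chronic non-helpless and 839 (798 to 881) in non-shocked microglia. Hsp90ab1, the constitutive cytosolic Hsp90, had 1071, 1167, 865, 1326, 1132 and 560 (527 to 595) CPM. For both genes the non-shocked level lay under all 5 shocked libraries with no overlap of intervals. Acute helpless and acute non-helpless microglia differed little in them, by 1.10-fold for Hspa8 and 1.09-fold for Hsp90ab1.

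Hspd1 and Hspe1 encode the mitochondrial chaperonin Hsp60 and its lid Hsp10, and are transcribed in opposite directions from a shared region of chromosome 1. Their heat shock elements are shown because the 3 matches overlap in a run that lies in the window of Hspe1 and in 1 of 2 windows of Hspd1, the window before its annotated gene start holding 0, read here on the strand of Hspe1 (chr1:55088053-55088082), and 1.46% of all windows held 2 or more matches.
Hspe1: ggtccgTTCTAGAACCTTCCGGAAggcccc
Hspe1 had 198 CPM in acute helpless, 249 in acute non-helpless, 105 (72.0 to 149) in chronic non-recovered, 199 in chronic recovered, 188 in chronic non-helpless and 107 (92.5 to 123) in non-shocked microglia. Chronic non-recovered and non-shocked microglia thus shared the low end. Hspd1 had 93.3, 98.4, 79.0, 94.4, 104 and 67.3 CPM, and its chronic non-recovered interval (50.6 to 117) overlapped those of all other libraries.

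Hspa5, or BiP, the Hsp70 of the endoplasmic reticulum, did not follow the cytosolic genes. It had 791 CPM (758 to 825) in acute helpless, 853 (815 to 892) in acute non-helpless, 918 (813 to 1032) in chronic non-recovered, 1044 (996 to 1093) in chronic recovered, 1027 (984 to 1070) in chronic non-helpless and 893 (850 to 936) in non-shocked microglia. Its highest and lowest libraries were 1.32-fold apart, and it was called in none of the 9 comparisons. Its upstream window (chr2:34771840-34772089, plus strand, GRCm38.p6) is shown for contrast with the Hspa1a window: it held no GAANNTTC or TTCNNGAA and, in capitals, 1 endoplasmic reticulum stress element, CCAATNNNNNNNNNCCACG, which was searched on both strands and occurred in 0.113% of all windows.
Hspa5: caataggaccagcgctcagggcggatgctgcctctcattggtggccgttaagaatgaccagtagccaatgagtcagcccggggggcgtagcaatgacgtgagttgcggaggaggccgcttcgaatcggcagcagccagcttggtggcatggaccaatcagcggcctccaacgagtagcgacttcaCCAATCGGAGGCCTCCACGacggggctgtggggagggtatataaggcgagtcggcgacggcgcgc
Upstream sequences of 7 of the 10 genes were available for the motif search.

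Acute helpless microglia were compared with acute non-helpless microglia, the contrast of behaviour after the same shocks. Of the 10 chaperones, 4 were lower and 0 higher, where 8.92% of the 6907 genes that reached 20 CPM in 1 or both libraries were called lower and 8.74% higher. All 4 were inducible: Hspa1b was 10.4-fold lower (6.48 to 17.8), Hspa1a 8.84-fold lower (7.06 to 11.2), Hsph1 2.73-fold lower (1.98 to 3.79) and Dnajb1 1.77-fold lower (1.53 to 2.06). Hsp90aa1 was at 153 CPM in acute helpless and 213 CPM in acute non-helpless microglia, 1.40-fold lower (1.22 to 1.59) and short of 1.5-fold. The 5 constitutive and organelle members had log2 ratios between -0.33 and -0.08. The median log2 ratio was -1.45 for the inducible and -0.12 for the constitutive members, against -0.06 for all genes. The lower inducible level in the helpless library came with a lower sum of 16 immediate early and dissociation genes, 3575 CPM in acute helpless against 5981 CPM in acute non-helpless microglia, and the part of that in the result was not tested.

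Both acute libraries were set against non-shocked microglia. In acute helpless microglia 6 chaperones were higher and 0 lower, where 7.48% of 7392 genes were called higher and 23.5% lower. Hsp90ab1 was 1.91-fold higher (1.78 to 2.05), Hspe1 1.86-fold (1.58 to 2.197) and Hspa8 1.67-fold (1.57 to 1.77), and Dnajb1 and Hsph1 were 1.51-fold (1.23 to 1.85) and 1.79-fold (1.08 to 3.08) higher. Hspa1b had a ratio of 4.38 (1.29 to 23.1), from 19 against 3 UMIs at background level; without it 5 members were higher, and none of those reached 2-fold. Hspa1a had a ratio of 1.47 (1.00 to 2.18), Hsp90aa1 of 1.47 (1.23 to 1.75) and Hspd1 of 1.39 (1.12 to 1.73), and none of these was called on CPM. That depends on the scaling. With median-of-ratios size factors in place of CPM, their log2 ratios were 0.75, 0.75 and 0.67, each past 1.5-fold. Against the non-shocked cells of batch 2 alone, the log2 ratios of Hspa1b and Hsph1 turned to -0.71 and -0.93, on 2 and 7 UMIs in those cells; the acute helpless library has no non-shocked cells of its own batch.

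In acute non-helpless microglia 8 chaperones were higher than in non-shocked microglia and 0 lower, where 8.89% of 7458 genes were called higher and 20.7% lower. Hspa1b had a ratio of 45.7 (15.4 to 224; 166 against 3 UMIs at background level). Hspa1a was 12.96-fold higher (9.45 to 18.2), Hsph1 4.88-fold (3.09 to 8.06), Dnajb1 2.68-fold (2.21 to 3.25) and Hsp90aa1 2.05-fold (1.73 to 2.43). The constitutive members called higher were Hspe1 at 2.33-fold (1.98 to 2.76), Hsp90ab1 at 2.08-fold (1.94 to 2.24) and Hspa8 at 1.84-fold (1.73 to 1.95). Hspd1 and Hspa5 had ratios of 1.46 and 0.956 and were not called. Within batch 2, the acute non-helpless library was set against the 123 non-shocked microglia of that batch, and 7 chaperones were higher and 0 lower, where 9.12% of 7759 genes were higher and 21.7% lower. Hspa1a, with 643 UMIs against 0, was there at least 16.5-fold higher with the 0 set at the floor of 3 UMIs over the group, and the exact 95% lower limit of its ratio was 13.4. Hspa1b had a ratio of 6.39 (1.74 to 53.2; 166 against 2 UMIs). Dnajb1 was 8.85-fold (3.43 to 32.6) and Hspe1 3.11-fold (1.84 to 5.72) higher. Hsph1 was not called within batch 2, with 57.3 CPM in acute non-helpless and 40.1 CPM (16.1 to 82.7; 7 UMIs) in non-shocked microglia.

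**Figure D2:**
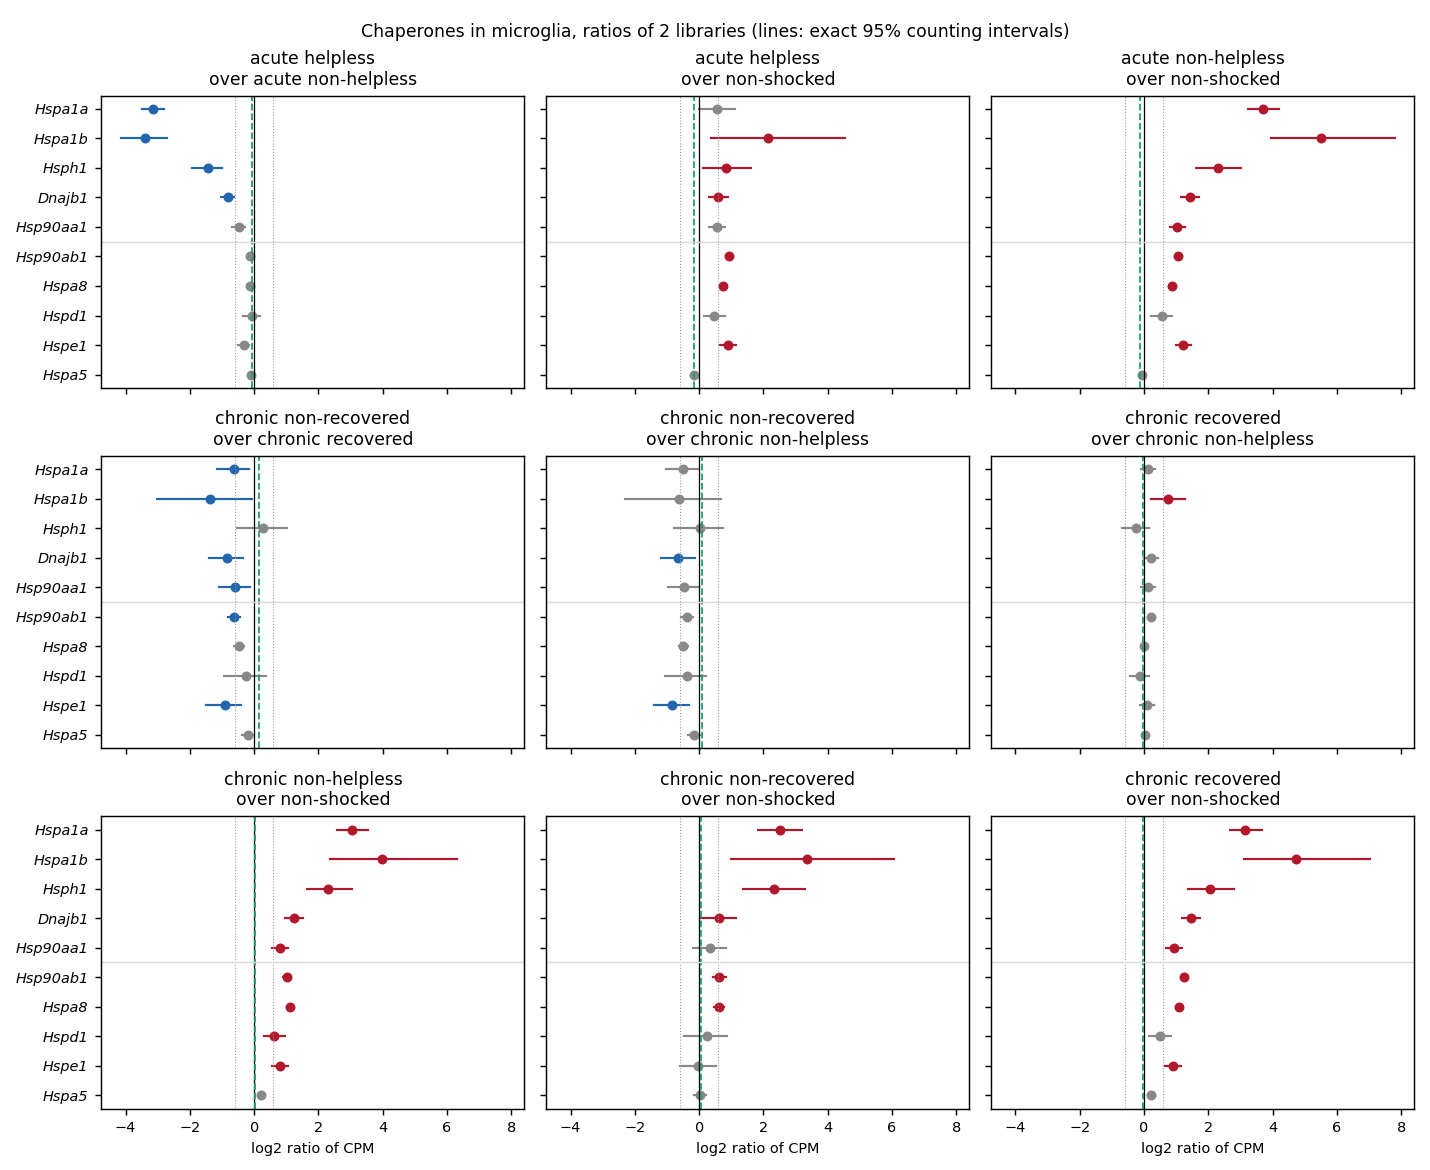
Log2 ratios of CPM for the 10 chaperones in microglia in the 9 comparisons, with exact 95% counting intervals; red and blue points were called higher and lower, grey points were not called, dotted lines mark 1.5-fold and the green dashed line the median of all genes. The 5 inducible members (above the grey line) spread widely in the acute comparisons, and Hspa5 (bottom) lies near 0 in all panels.

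The chronic libraries were also set against non-shocked microglia. In chronic non-helpless microglia 9 chaperones were higher and 0 lower, where 2.99% of 7356 genes were higher and 13.8% lower. In chronic recovered microglia 8 were higher and 0 lower, where 3.23% of 7280 genes were higher and 12.9% lower. Hspa1a was 8.17-fold higher (5.91 to 11.6) in chronic non-helpless and 8.89-fold higher (6.42 to 12.6) in chronic recovered microglia. Hspa8 was 2.14-fold (2.02 to 2.28) and 2.13-fold (2.01 to 2.27) higher, and Hsp90ab1 2.02-fold (1.88 to 2.17) and 2.37-fold (2.1975 to 2.55) higher, in chronic non-helpless and in chronic recovered microglia. Hspa5 was called in neither, at 1.15-fold and 1.17-fold. In chronic non-recovered microglia 6 were higher and 0 lower, where 7.95% of 7597 genes were higher and 3.01% lower. Hspa1a was 5.71-fold higher there (3.58 to 9.11), and Hsph1 5.04-fold (2.55 to 9.85). The Hspa1a ratio rests on 10 non-recovered cells with a UMI of the gene. Hspa1b was among the 6 with a ratio of 10.3 (2.00 to 66.2), from 5 against 3 UMIs at background level, and 5 were higher without it.

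Limiting the non-shocked library to batch 3, the batch of the chronic libraries, kept 9 higher calls in chronic non-helpless (3.21% of all genes higher, 12.6% lower) and 8 in chronic recovered microglia (2.94% higher, 11.7% lower). In chronic non-recovered microglia 4 were then higher and 0 lower (8.67% of all genes higher, 3.07% lower), Hspa1a, Hspa1b (5 against 1 UMIs), Hsph1 and Hsp90ab1, with Dnajb1 at 1.42-fold (0.949 to 2.07) and Hspa8 at 1.49-fold (1.33 to 1.67). Under median-of-ratios size factors in place of CPM that library had 3 higher calls against the whole non-shocked library.

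The comparisons that share the non-shocked library are not independent of each other: its low levels enter all 5. The non-shocked cells themselves differed by batch. Batch 2 cells had 1 chaperone higher and 1 lower than batch 3 cells, where 15.3% of 8096 genes were higher and 8.42% lower. Hsph1 was at 40.1 CPM in batch 2 and 8.83 CPM in batch 3, and Dnajb1 at 22.9 CPM in batch 2 and 81.2 CPM in batch 3. The sum of the 5 inducible members was 172 CPM (116 to 245) in batch 2 and 220 CPM (198 to 243) in batch 3, below the 327 CPM (306 to 349) of the lowest shocked library. The sum of the constitutive members was 1995 CPM (1791 to 2216) in batch 2 and 2514 CPM (2439 to 2590) in batch 3, below the 3251 CPM (3051 to 3460) of the lowest shocked library. Both sums were therefore lowest in non-shocked cells whichever batch was used.

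Among the chronic libraries, non-recovered microglia held less of several chaperones than recovered microglia. Of the 10 genes, 6 were lower and 0 higher, where 5.69% of 7455 genes were lower and 16.9% higher. Hspa1b was 2.57-fold lower (1.05 to 8.15; 5 against 73 UMIs), Hspe1 1.89-fold (1.32 to 2.81), Dnajb1 1.81-fold (1.27 to 2.63), Hspa1a 1.56-fold (1.11 to 2.24), Hsp90ab1 1.53-fold (1.35 to 1.75) and Hsp90aa1 1.505-fold (1.08 to 2.14). Hsph1 went the other way without reaching the threshold, at 59.2 CPM in non-recovered and 48.6 CPM in recovered microglia. With cells thinned to 1000 UMIs 1 of the 10 was called lower, and with barcodes that mix markers left out 3 were. Limited to microglia with at least 2.5% ribosomal protein UMIs, 3 were called.

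Against chronic non-helpless microglia, non-recovered microglia had 2 chaperones lower and 0 higher, where 5% of 7507 genes were lower and 16.1% higher. Hspe1 was 1.78-fold lower (1.24 to 2.64) and Dnajb1 1.56-fold lower (1.10 to 2.27). That count was 0 with cells thinned to 1000 UMIs and 5 under median-of-ratios size factors. Recovered over chronic non-helpless microglia had 1 member higher and 0 lower, where 3.65% of 6927 genes were higher and 2.53% lower: Hspa1b was 1.67-fold higher (1.16 to 2.42), at 42.3 CPM in recovered and 25.3 CPM in chronic non-helpless microglia. With cells thinned to 1000 UMIs no member was called in that comparison.

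The chronic non-recovered library stood apart in ways that move with these values. It had 99 microglia, and 54.5% of them had under 2.5% ribosomal protein UMIs, against 9.67% to 15.9% in the other shocked libraries, 41.3% in non-shocked microglia as a whole and 65.0% in those of batch 2. Its microglia also carried 6 of 7 neutrophil markers at 21350 CPM in sum, with Retnlg at 0, against 961 CPM in chronic non-helpless, 4.63 CPM in recovered and 9.07 CPM in non-shocked microglia; all 7 were at 0 in both acute libraries. Monocyte markers summed to 885 CPM in it and to 14.1 CPM or less elsewhere, with Vcan at 0. The part of these in the lower chaperone levels was not tested beyond the counts above with such barcodes left out.

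The share of microglia with a UMI of a chaperone depends on depth, so each cell was also thinned to 1000 UMIs, which left out 0 acute helpless, 7 acute non-helpless, 11 non-recovered, 7 recovered, 4 chronic non-helpless and 92 non-shocked microglia. Hspa1a was then seen in 2.70% (1.58 to 4.29) of acute helpless, 17.8% (14.7 to 21.2) of acute non-helpless, 5.68% (1.87 to 12.8) of non-recovered, 12.1% (8.90 to 15.8) of recovered, 11.3% (8.66 to 14.4) of those of the chronic non-helpless library and 1.52% (0.614 to 3.11) in non-shocked microglia. Without thinning the shares were 8.10%, 31.5%, 10.1%, 25% (93 of 372 cells), 21.0% and 2.72%. The order of the libraries was the same at both depths. After thinning, the non-recovered interval overlapped those of acute helpless and non-shocked microglia, and also those of recovered and chronic non-helpless microglia. Hspa8 was seen in 71.0%, 76.2%, 61.4%, 77.3%, 77.6% and 52.2% of thinned cells, and Hspa5 in 51.1%, 54.3%, 53.4%, 58.9%, 58.4% and 53.5%. No cell type in these libraries is known to lack the chaperones, so free RNA was gauged from genes that microglia should lack. S100a8 was seen in 0% of acute helpless, 0% of acute non-helpless, 6.06% of non-recovered, 1.08% of recovered, 1.80% of microglia from the chronic non-helpless library and 0.725% from the non-shocked one, and Cd3e in 2.02% or less of microglia in every library. For the acute libraries, a count of 0 set at 3 cells gives a share of 0.476% of 630 and 0.527% of 569 cells. The exact 95% upper limits for a count of 0 were 0.584% and 0.646%. In non-recovered microglia S100a8 was no gauge of free RNA, since the neutrophil markers summed to 6489 UMIs while S100a8 was seen in 6 of 99 cells. Hspa1b was seen in 5.05% of those cells without thinning, on 5 UMIs. Median depth was 4161, 3676, 2497, 4580, 4245 and 3060 UMIs per microglial cell in the 6 libraries in the same order.

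**Figure D3:**
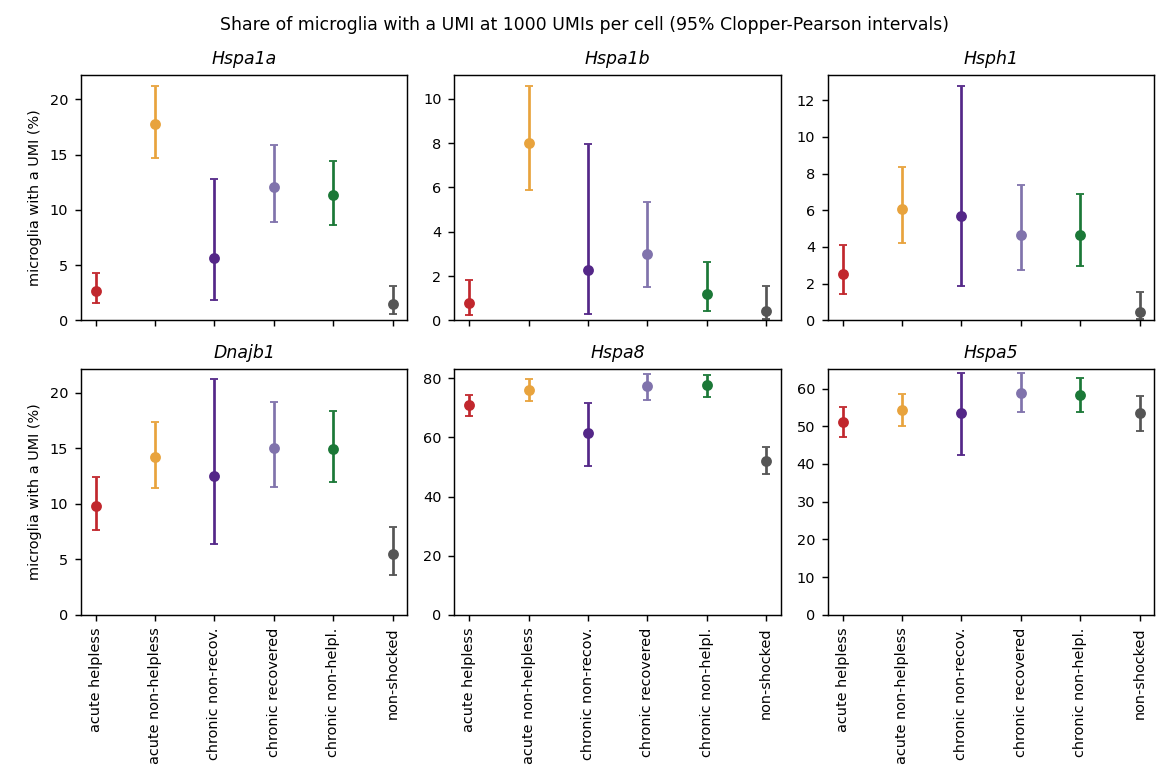
Share of microglia with at least 1 UMI of 6 chaperones after each cell was thinned to 1000 UMIs, by library, with 95% Clopper-Pearson intervals. The share for Hspa1a reaches 17.8% in acute non-helpless microglia, against 2.70% in acute helpless and 1.52% in non-shocked microglia, while Hspa5 lies between 51.1% and 58.9% in all 6 libraries.

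Hspa1a transcripts were unevenly spread over cells where the gene was high. In acute non-helpless microglia 179 of 569 cells held the 643 UMIs, 49 of them with 1 UMI and 52 with at least 5, up to 15 in a cell. The 57 cells with most Hspa1a UMIs held 61.3% of them, while the 57 cells with most Hspa8 held 28.6% of its UMIs and those with most Hspa5 32.0%. In recovered microglia the top 37 cells held 74.7% of Hspa1a UMIs, and 1 cell held 30. In chronic non-helpless microglia the top 50 cells held 78.5%. In acute helpless microglia 51 of 630 cells held the 87 UMIs, 2 of them with at least 5, and in non-shocked microglia 15 of 552 cells held 41. In non-recovered microglia 10 of 99 cells held the 38 UMIs, 2 of them with at least 5, up to 13 in a cell. The top cells were chosen for each gene by its own UMIs, so these shares describe spread only.

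In acute non-helpless microglia, cells with Hspa1a more often held other inducible chaperones than cells without it. In acute non-helpless microglia Hspa1b was seen in 35.8% of 179 cells with Hspa1a and 10.3% of 390 cells without, Dnajb1 in 59.2% of cells with and 40.3% without, and Hsph1 in 25.1% with and 14.6% without. The median depth was 3809 UMIs in cells with Hspa1a and 3567 in cells without. After thinning to 1000 UMIs Hspa1b was seen in 14.0% of 100 cells with and 6.71% of 462 cells without, and Dnajb1 in 23.0% with and 12.3% without, while Hspa5 was seen in 53.0% with and 54.5% without. The constitutive Hspe1 and Hsp90ab1 were also seen more often in cells with Hspa1a, Hspe1 in 31.0% with and 19.0% without and Hsp90ab1 in 71.0% with and 57.6% without, so this was not particular to inducible members. In recovered microglia the thinned shares for Dnajb1 were 29.5% of 44 cells with Hspa1a and 13.1% of 321 without. In chronic non-helpless microglia they were 17.9% of 56 cells with and 14.6% of 439 without. Hspa1b, left in 6 cells of that library by thinning, was seen in 0 of 56 cells with and 1.37% of those without. Without thinning, Hspa1b was seen there in 18.1% of 105 cells with Hspa1a and 3.55% of 394 without. Dnajb1 was seen in 67.6% with and 42.6% without, and Hspd1 in 32.4% with and 33.5% without. The median depth was 4290 UMIs in cells with Hspa1a and 4242 in cells without. Since reads of Hspa1a and Hspa1b may be exchanged between the 2 genes, their shared presence in a cell is not separate evidence.

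Among deposited clusters with at least 20 microglia of a library, the inducible level varied more between libraries than between clusters of a library, except in chronic non-recovered and non-shocked microglia. The sum of the 5 inducible members was 328, 303 and 316 CPM in clusters 1, 2 and 3 of acute helpless microglia, and 853, 762, 873 and 843 CPM in clusters 1, 2, 3 and 5 of acute non-helpless microglia. In chronic non-helpless microglia it was 620, 610, 706 and 623 CPM in clusters 1, 2, 3 and 5, and in recovered microglia 686 and 783 CPM in clusters 2 and 6. In non-shocked microglia it was 222, 206, 98.4 and 221 CPM in clusters 1, 3, 4 and 6. The exception of non-shocked microglia rests on cluster 4 alone. Its 38 cells held 2 UMIs of Dnajb1, 3 of Hsp90aa1 and 0 of the other inducible members, so that level is uncertain. Cluster 3, whose microglia had median ribosomal protein shares of 0.791% to 1.21%, kept the order of the libraries: 316 CPM in acute helpless, 873 in acute non-helpless, 706 in chronic non-helpless and 206 in non-shocked microglia. Non-recovered microglia had 522 CPM in cluster 1 and 324 CPM in cluster 6. The constitutive sum did vary with the cluster: in acute non-helpless microglia it was 4170, 3687 and 3939 CPM in clusters 1, 2 and 5 and 2832 CPM in cluster 3, and in non-recovered microglia 3925 CPM in cluster 1 and 2129 CPM in cluster 6. Non-shocked microglia had 2609 CPM in cluster 1 and 2037 CPM in cluster 6, and recovered microglia 3747 CPM in cluster 6. Within cluster 6, non-recovered and non-shocked microglia were thus close in this sum. Clusters were made by the authors from these same cells, so levels by cluster are given as a description.

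**Figure D4:**
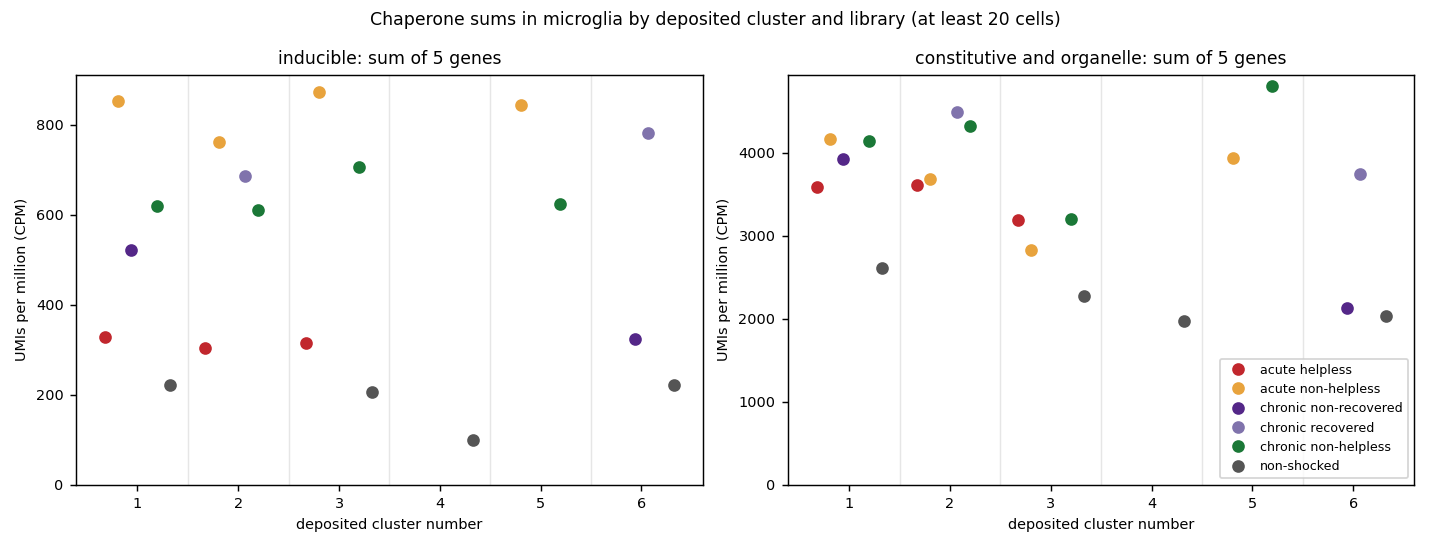
Summed CPM of the 5 inducible (left) and the 5 constitutive and organelle chaperones (right) in microglia of each deposited cluster, coloured by library, for clusters with at least 20 microglia of a library. Within clusters 1, 2 and 3 acute helpless microglia lie at 303 to 328 CPM of inducible chaperones, against 762 to 873 CPM in acute non-helpless microglia.

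Among the other cells, T cells were numerous enough for a comparison with microglia in 3 libraries: acute helpless (30 T cells), recovered (63) and chronic non-helpless (25). Hsp90ab1 was near 1.5-fold above microglia of the same library and called higher in acute helpless and recovered T cells, and Hsp90aa1 was called higher in recovered T cells (1.88-fold, 1.62 to 2.17) and chronic non-helpless T cells (1.61-fold, 1.28 to 2.01). Hsp90ab1 was at 1636, 2028 and 1697 CPM in T cells and at 1071, 1326 and 1132 CPM in microglia of those libraries, ratios of 1.53 (1.39 to 1.68), 1.53 (1.44 to 1.62) and 1.4997 (1.37 to 1.64). Hsph1 had ratios of 2.08 (1.04 to 3.84), 2.10 (1.57 to 2.81) and 1.06 (0.634 to 1.69) in the same order of libraries, and was called higher in acute helpless and recovered T cells. Hspa5 was at 484, 697 and 725 CPM in T cells and at 791, 1044 and 1027 CPM in microglia, and was called lower in the acute helpless library alone (0.612, 0.513 to 0.725). Among these 3 libraries, Hspa1a was lowest in the acute helpless one, in T cells as in microglia. It was at 23.5 CPM (7 UMIs) in acute helpless T cells, 138 CPM (158 UMIs) in recovered T cells and 126 CPM (43 UMIs) in chronic non-helpless T cells. Its ratios over microglia were 0.733 (0.286 to 1.58), 0.708 (0.583 to 0.858) and 0.706 (0.503 to 0.970) in that order, and it was not called. Of the 161 T cell barcodes, 118 held at least 0.5% microglial marker UMIs, so a part of their chaperone UMIs may stem from microglia; that part was not measured. Over all libraries, Hspa1a stood at 147 CPM (111 to 191) in 42 monocytes, 216 CPM (126 to 345) in 25 macrophages, 28.9 CPM (13.2 to 54.8) in 39 NK cells and 22.7 CPM (2.74 to 81.9) in 17 B cells, against 139 CPM (132 to 146) in microglia. These types are spread unevenly over the libraries, so their levels mix cell type and library.

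**Figure D5:**
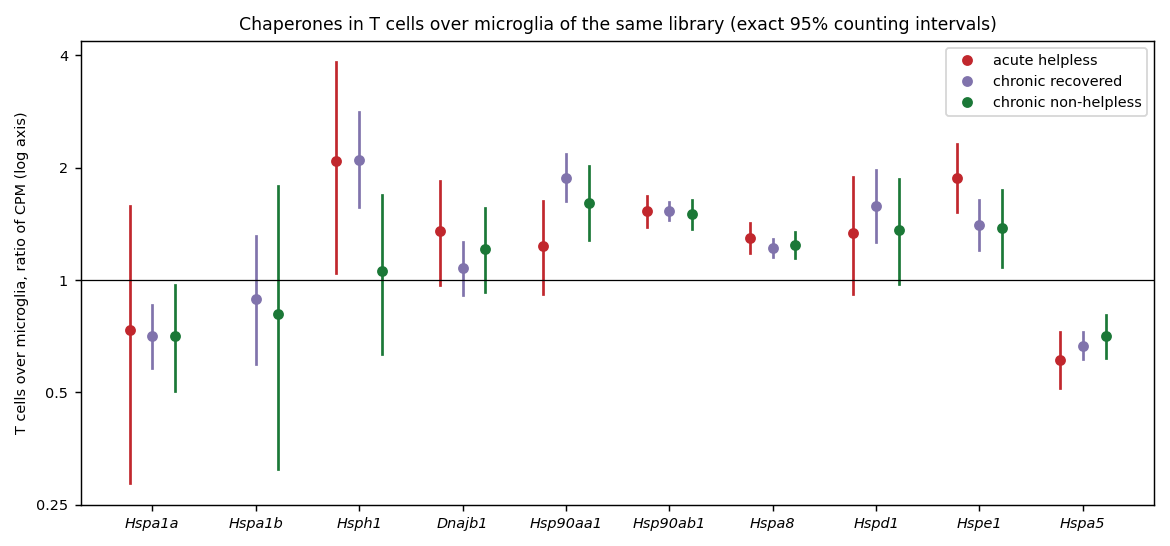
Ratio of CPM of each chaperone in T cells over microglia of the same library (log axis), with exact 95% counting intervals, for the 3 libraries with at least 20 T cells; Hspa1b in acute helpless T cells, with 0 UMIs, is not drawn. Hsp90ab1 lies near 1.5-fold in all 3 libraries and Hspa5 lies between 0.612 and 0.707.

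Other genes of the heat shock response were counted from a list of 22 co-chaperones and heat shock factor 1 targets. In acute helpless over acute non-helpless microglia 2 of 19 measured members were higher and 1 lower. Bag1, a nucleotide exchange factor of Hsp70, was 4.75-fold higher (3.52 to 6.54), and the small heat shock protein Hspb1 was 24.7-fold lower (8.07 to 123; 3 against 62 UMIs). Over all genes 8.74% were higher and 8.92% lower, near the shares of the list, so these counts do not set the list apart. Bag1 ran opposite to the inducible members here, and the 2 acute libraries also differ in batch number. Against non-shocked microglia, 7 of 19 were higher and 2 lower in acute non-helpless microglia (8.89% and 20.7% of all genes), and 5 of 18 higher and 0 lower in acute helpless microglia (7.48% and 23.5%). In the chronic libraries 7 of 18 were higher and 1 lower in non-helpless (2.99% and 13.8% of all genes), 5 of 18 higher and 1 lower in recovered (3.23% and 12.9%), and 3 of 18 higher and 0 lower in non-recovered microglia (7.95% and 3.01%). Dnaja1, an Hsp40 partner of Hsc70, was higher in all 5: 2.55-fold (2.15 to 3.04) in acute helpless, 3.43-fold (2.89 to 4.08) in acute non-helpless, 2.36-fold (1.74 to 3.15) in non-recovered, 2.70-fold (2.25 to 3.24) in recovered and 2.42-fold (2.03 to 2.91) in chronic non-helpless microglia. Bag1 was 3.96-fold lower (2.88 to 5.54) in acute non-helpless than in non-shocked microglia, 8.10-fold lower (5.03 to 13.8) in recovered and 5.43-fold lower (3.75 to 8.06) in chronic non-helpless microglia. It also differed by batch within the non-shocked library, with 34.4 CPM in batch 2 and 94.8 CPM in batch 3. Over the non-shocked cells of batch 2, the batch of the acute non-helpless library, 6 of 19 members were higher and 0 lower in that library. Of all genes 9.12% were higher and 21.7% lower in that comparison, and Bag1 was not called lower in it.

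The chaperonin CCT, which folds actin and tubulin, was measured through 7 of its 8 genes. Its sum was 865 CPM in acute helpless, 871 in acute non-helpless, 655 in non-recovered, 960 in recovered, 897 in chronic non-helpless and 645 in non-shocked microglia. In non-recovered over recovered microglia 5 of 7 were lower and 0 higher, where 5.69% of all genes were lower and 16.9% higher, with Cct3 1.83-fold (1.14 to 3.11) and Tcp1 1.79-fold (1.14 to 2.94) lower. In recovered over non-shocked microglia 4 of 7 were higher and 0 lower, where 3.23% of all genes were higher and 12.9% lower, with Cct2 at 1.66-fold (1.36 to 2.03). In the acute helpless, acute non-helpless, non-recovered and chronic non-helpless libraries 1, 2, 1 and 2 of 7 were higher and 0 lower. Of all genes 7.48%, 8.89%, 7.95% and 2.99% were higher there, and 23.5%, 20.7%, 3.01% and 13.8% lower. With the non-shocked cells of the same batch, 0 were higher in non-recovered and 4 in acute non-helpless microglia (8.67% and 9.12% of all genes).

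Chaperones and sensors of the endoplasmic reticulum were a list of 20 without Hspa5. Against non-shocked microglia, 0 of 20 were higher in any of the 5 shocked libraries, and 3, 3, 2, 1 and 3 were lower in acute helpless, acute non-helpless, non-recovered, recovered and chronic non-helpless microglia, where 23.5%, 20.7%, 3.01%, 12.9% and 13.8% of all genes were lower. In the same order, 7.48%, 8.89%, 7.95%, 3.23% and 2.99% of all genes were higher, so 0 of 20 was not far from these shares. Over the non-shocked cells of batch 2, acute non-helpless microglia had 3 of 20 higher and 3 lower, where 9.12% of all genes were higher and 21.7% lower. Eif2ak3, which encodes the sensor PERK, was 2.31-fold lower (1.55 to 3.48) in the acute helpless library and 2.90-fold lower (1.84 to 4.68) in the acute non-helpless one. The median log2 ratio of the list was -0.12 in acute helpless and -0.09 in acute non-helpless over non-shocked microglia, against -0.16 and -0.13 for all genes. Of the 7 mitochondrial folding genes other than the members, 0 were called in acute helpless and 2 were higher and 1 lower in acute non-helpless over non-shocked microglia. Of all genes, 7.48% were higher and 23.5% lower in the former comparison, and 8.89% higher and 20.7% lower in the latter. Over the non-shocked cells of batch 2, acute non-helpless microglia had 1 of these 7 genes higher and 3 lower. Of all genes 9.12% were higher and 21.7% lower in that comparison.

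The 16 immediate early and dissociation genes were low together with the inducible chaperones in acute helpless microglia, and high in non-shocked microglia, where those chaperones were low. In acute helpless over acute non-helpless microglia 8 of 14 were lower and 1 higher, where 8.92% of all genes were lower and 8.74% higher. Their sum was 3575 CPM in acute helpless, 5981 in acute non-helpless, 5936 in non-recovered, 6455 in recovered, 6597 in chronic non-helpless and 6813 in non-shocked microglia. Within non-shocked microglia it was 2895 CPM in batch 2 and 7216 CPM in batch 3, while the inducible chaperone sum was 172 and 220 CPM. In acute helpless over non-shocked microglia 11 of 15 were lower and 1 higher, where 23.5% of all genes were lower and 7.48% higher. In acute non-helpless over the non-shocked cells of batch 2, 10 of 13 were higher and 0 lower, where 9.12% of all genes were higher and 21.7% lower; the part of this in the chaperone ratios of that comparison was not tested.

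The genes whose level was most like that of the Hspa1a and Hspa1b pair were sought over 7 profiles, the 5 shocked libraries and the 2 batches of the non-shocked one, among 5150 genes. The highest correlations of log2(CPM + 5) were those of Dctn5 (r = 0.97), Ilk (0.96), Rhoh (0.95), Tra2b (0.94) and Clpp (0.94). The profiles share batches and differ in depth, and a search over 5150 genes with n = 7 will find high values, so these are a description. Their levels moved little: Dctn5 lay at 103 CPM in acute helpless, 140 in acute non-helpless and 93.6 in batch 3 of the non-shocked microglia, and Ilk at 132, 154 and 122. Among the other members the same measure was 0.92 for Hsp90aa1, 0.88 for Dnajb1, 0.87 for Hspa8, 0.86 for Hsp90ab1, 0.83 for Hspd1, 0.76 for Hspe1, 0.69 for Hsph1 and 0.58 for Hspa5.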

How the data were processed

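The deposited raw matrices hold counts of UMIs per gene and cell, and the authors' cell metadata give UMI counts, batch, cluster and cell type. Build mm10, Cell Ranger (2.2.0) and Seurat (2.3.4) are named, per the submitters' processing notes, while the handling of multi-mapped reads, cell typing and batch definition are not stated there. Other deposited files were not used.

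UMIs were summed per library and cell type and divided by that sum (CPM). Levels have exact Poisson, shares Clopper-Pearson and ratios of 2 libraries conditional exact intervals (95%), computed with scipy 1.17.1. Calls need 1.5-fold with the interval on that side of 1; log2 ratios treat 0, 1 or 2 UMIs in the lower library as 3. All-gene shares are over genes that reach 20 CPM in 1 or both libraries. The counts of the 10 members have no such limit. Hspa1b lay under it on both sides in acute helpless and in non-recovered over non-shocked microglia. Lists were named by up to 4 members past these limits. With 1 library per group no test was possible, so no p-values are given. The ratios and calls were also run on simulated Poisson counts with known fold changes. These counts had no spread between cells or libraries, so that run cannot show how the calls hold under such spread. Doublets were kept in the main analysis: Scrublet (scanpy 1.11.5, 20 components) called 49 of 3005 cells. Upstream sequences are RefSeq's (GRCm38.p6), and transcripts for shared 50-base stretches are GENCODE M21. The members, lists and alternatives were chosen with earlier results of these data known. An alternative limiting the background to symbols with UMIs in both libraries was chosen after seeing the data. A member of a co-chaperone list is counted but not reported here by name.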

Additional observations from a re-analysis of the deposited data

How the results depend on the processing

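The counts of chaperones called were recomputed under 12 alternatives, 2 of them for the non-shocked comparisons only. The 90 member ratios were recomputed under all but the 2-fold threshold, 50 of them for each non-shocked batch. Members called in the main analysis kept their direction wherever their ratios were recomputed except for 2, in acute helpless over non-shocked microglia with non-shocked cells of batch 2: the log2 ratios of Hspa1b (-0.71) and Hsph1 (-0.93) reversed. All 18 counts stayed within 1.5 times with totals without mitochondrial and ribosomal protein genes, cells of at least 1000 UMIs, cells under 5% mitochondrial UMIs and Scrublet calls removed. All 10 counts against non-shocked microglia did so with either batch, which includes the fall from 6 to 4 in non-recovered microglia with batch 3. The ratios themselves depended on the batch used. With batch 2, 17 of 50 member ratios lay within the counting interval of the main analysis, against 50 of 50 with batch 3. Under median-of-ratios size factors, 5 members were lower in non-recovered over chronic non-helpless microglia (2 on CPM) and 3 higher in non-recovered over non-shocked microglia (6 on CPM). With each cell weighted equally, 5 were lower in non-recovered over chronic non-helpless microglia. Between these scalings all log2 ratios shifted by -0.19 (CPM minus size factors) in acute helpless, -0.15 in acute non-helpless and 0.10 in non-recovered over non-shocked microglia, and by 0.18 and 0.14 in non-recovered over recovered and over chronic non-helpless microglia. Hspa5, which was not called, was at -0.17 on CPM and 0.02 with size factors in acute helpless over non-shocked microglia.

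In non-recovered over recovered microglia, 6 members were lower, against 3 with at least 2.5% ribosomal protein UMIs, 3 with mixed barcodes left out, 1 with cells thinned to 1000 UMIs and 1 at 2-fold. In non-recovered over chronic non-helpless microglia the count of 2 became 1, 0 and 0 with the ribosomal limit, thinning and 2-fold. In recovered over chronic non-helpless microglia the count of 1 became 0 with thinning and at 2-fold. At 2-fold, 1 member was higher in acute helpless and 3 in non-recovered over non-shocked microglia. Leaving out mixed barcodes removed 828 of 2721 microglia, 799 of them only through UMIs of Ighm and Cd79b. The cause of these changes was not tested. The all-gene shares without a minimum CPM were lower than at 20 CPM, and 22% in place of 23.5% of genes were lower in acute helpless over non-shocked microglia when limited to symbols with UMIs in both libraries. No paired analysis was possible because each group has 1 library. Depth limits precision: Hspa1b rests on 5 UMIs in the non-recovered library and on 2 and 1 UMIs in non-shocked cells of batch 2 and batch 3.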
